A study of Mus musculus with 24 samples.

Results

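The SLC25 genes encode the mitochondrial carrier family, and they were taken here as every protein-coding gene whose mouse symbol is Slc25a followed by a number. The rule found 47 of the 52350 genes in each count file. Transcripts were measured by poly-A RNA sequencing of hearts from male C57Bl/6 mice, WT and aged 12 weeks, housed with lights on for 12 h and off for 12 h, in 24 libraries whose titles number them as biol rep 1 to 6 of a group. The 4 groups differed in zeitgeber time (ZT) and in exercise: ZT0-SED and ZT12-SED mice were sedentary, while ZT0-EX and ZT12-EX mice were habituated to the treadmill and then ran on it once, for 60 min, at a speed of 10 m/min on a 0% grade. The rest phase begins at ZT0 and the active phase at ZT12, and animals handled in the dark were handled under red light. In every group, replicates 1 to 3 were sequenced on flow cell 1 and replicates 4 to 6 on flow cell 2. How long after the bout the hearts were taken, and whether each library is 1 mouse, the sources used here do not say, so p values measure the spread between these libraries.

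SLC25 proteins sit mostly in the inner mitochondrial membrane, which is otherwise closed to charged metabolites, and each exchanges or transports its own substrates between cytosol and matrix. In the heart they carry ADP in and ATP out, bring in phosphate for ATP synthesis, pass reducing equivalents through the malate-aspartate shuttle and admit acylcarnitines for fatty acid oxidation. Other members supply the matrix with nucleotides, cofactors, iron, glycine and glutathione, from which mitochondrial RNA, iron-sulphur clusters and haem are made or protected.

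Of the 47 members, 39 passed the filter on low counts and were tested. The other 8 had few or no counts: the highest count in any library was 20 for Slc25a31 (the ADP/ATP carrier of testis), 8 for Slc25a43, 7 for Slc25a21 and Slc25a18, 6 for Slc25a2, 2 for Slc25a48 and 1 for Slc25a41. Slc25a54 had 0 counts in all 24 libraries. A count of 3 corresponded to between 0.130 and 0.575 CPM (the count scaled to library size) depending on the library, so a value below that range stood for fewer than 3 counts. CPM values were scaled by the trimmed mean of M-values (TMM), and levels are compared between genes only after division by the length of the principal transcript (CPM per kb).

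Library totals ran from 9697334 to 23067191 counts, and the summed CPM of 8 cardiomyocyte markers ranged from 30362 to 196292, each of the 8 being present in every group, as the label heart implies. More genes differed between flow cells than in any comparison between groups, at 68.1% of the 15294 genes tested. Transcripts of the mitochondrial genome took 25.5% to 55.1% of counts on flow cell 1 and 2.70% to 23.7% on flow cell 2. On flow cell 1 they took 40.7% to 55.1% in ZT12-SED against 25.5% to 34.2% in ZT0-SED. The range there was 29.5% to 32.7% in ZT0-EX and 32.4% to 36.6% in ZT12-EX. The part of this difference in the time-of-day results was not tested. Fast skeletal muscle markers stood apart in 6 libraries, all on flow cell 2: ZT0-EX replicates 4, 5 and 6, and replicate 6 of each other group. ZT12-SED replicates 1 and 2 and ZT12-EX replicate 4 were the libraries least like the rest. Results are given with and without these libraries where the difference matters. In bulk tissue, fewer cells of a type and less RNA per cell cannot be told apart.

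The 3 carriers whose values by library carry the results below were Slc25a33, a pyrimidine nucleotide carrier, Slc25a38, the glycine carrier needed for haem synthesis, and Slc25a25, a calcium-regulated ATP-Mg/phosphate carrier. Their promoters are shown because Slc25a33 and Slc25a38 were the members that passed the test between groups and Slc25a25 had the largest estimate for exercise at both times. Each is the 250 bases before an annotated start in RefSeq (GRCm38.p6), printed 5′ to 3′ on the strand of the gene, and 36 of the 47 members had an entry. Capitals mark a match to 1 of 5 motifs searched on both strands: the E-box CACGTG, the cyclic AMP response element TGACGTCA, the estrogen-related receptor element TCAAGGTCA, the glucocorticoid response element and the D-box TTATGTAA. The Slc25a33 window is chr4:149774268-149774517, minus strand. The Slc25a25 window is chr2:32424067-32424316, minus strand, before the third of its annotated starts. The Slc25a38 window is chr9:120110132-120110381, plus strand.
Slc25a33: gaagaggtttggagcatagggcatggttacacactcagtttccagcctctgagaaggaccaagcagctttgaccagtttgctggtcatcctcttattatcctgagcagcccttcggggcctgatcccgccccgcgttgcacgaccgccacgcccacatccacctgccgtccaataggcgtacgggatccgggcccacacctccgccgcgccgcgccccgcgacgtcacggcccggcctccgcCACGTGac
Slc25a25: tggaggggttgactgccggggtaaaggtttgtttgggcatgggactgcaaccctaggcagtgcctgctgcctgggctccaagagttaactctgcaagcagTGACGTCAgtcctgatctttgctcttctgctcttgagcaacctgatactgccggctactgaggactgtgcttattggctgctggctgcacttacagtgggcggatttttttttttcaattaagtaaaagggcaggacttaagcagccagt
Slc25a38: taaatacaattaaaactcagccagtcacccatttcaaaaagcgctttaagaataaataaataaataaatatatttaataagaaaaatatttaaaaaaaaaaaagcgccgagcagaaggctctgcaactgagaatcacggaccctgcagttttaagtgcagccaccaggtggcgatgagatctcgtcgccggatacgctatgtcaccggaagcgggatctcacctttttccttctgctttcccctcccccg

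The Slc25a33 promoter held an E-box, the sequence bound by CLOCK and BMAL1 among other factors, with its first base 8 bases upstream of the start. An E-box lay in 6.02% of 32851 RefSeq promoter windows of this length, in at least 1 window of 6.86% of genes, and in 7 of the 36 members with an entry (Slc25a1, Slc25a13, Slc25a14, Slc25a15, Slc25a31, Slc25a33 and Slc25a36). The Slc25a25 window held a cyclic AMP response element starting 150 bases upstream. That element lay in 1.55% of all windows and 1.77% of genes, and among members in Slc25a25 and Slc25a36. The windows before the other 2 starts of Slc25a25 and the Slc25a38 window held none of the 5 motifs. The estrogen-related receptor element, present in 0.387% of windows, the D-box, present in 0.819%, and the glucocorticoid response element matched no member. A match is a run of letters and was not tested for binding.

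Per transcript length, the ADP/ATP carrier Slc25a4 and the phosphate carrier Slc25a3 dominated the family. Slc25a4, the ADP/ATP carrier isoform of heart and skeletal muscle, averaged 2837 CPM per kb over the 24 libraries, 3.10-fold above Slc25a3 at 914 CPM per kb. Next came Slc25a11, the oxoglutarate/malate carrier of the malate-aspartate shuttle, at 227, Slc25a5, the more widely expressed ADP/ATP carrier, at 155, and Slc25a20, the carnitine/acylcarnitine carrier, at 80.9 CPM per kb. The glutathione carrier Slc25a39 at 46.8 and the orphan carrier Slc25a34 at 46.2 CPM per kb lay within a few percent of each other, and the remaining tested members ran from 32.0 for the aspartate/glutamate carrier Slc25a13 down to 0.783 for Slc25a53. All 39 tested members together with the 8 others took 0.403% to 1.37% of the counts of a library, and Slc25a4 with Slc25a3 made up 72.2% to 89.7% of those. Slc25a4 alone took 48.3% to 65.8% of the family's counts on flow cell 1 and 65.0% to 76.7% on flow cell 2. The sources used here do not say how reads matching more than one ADP/ATP carrier gene were counted, and the split between Slc25a4, Slc25a5 and Slc25a31 is uncertain.

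**Figure D1:**
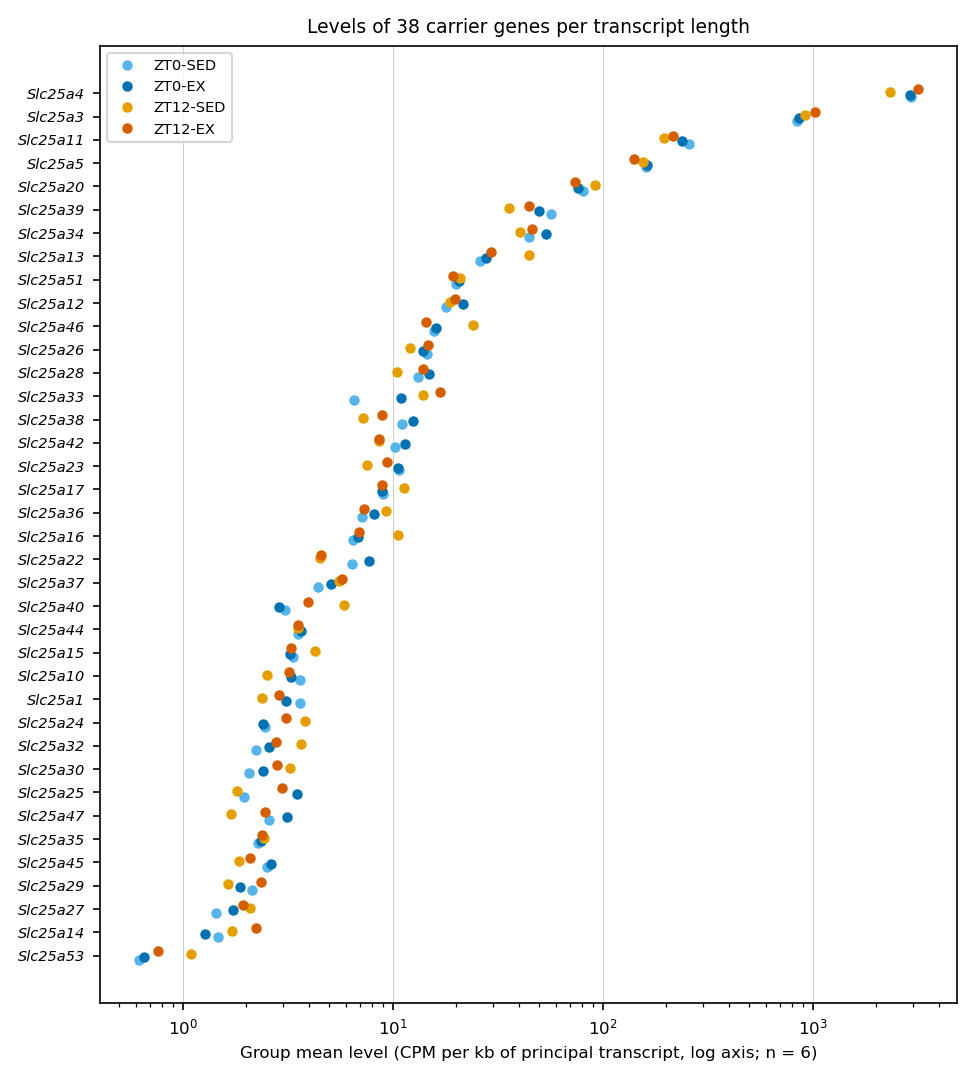
Mean level of 38 of the 39 tested carrier genes in each of the 4 groups (n = 6), in CPM per kb of principal transcript on a log axis. Slc25a4 and Slc25a3 lie apart at the top, at 2837 and 914 CPM per kb over all libraries, and the 4 group means of a gene lie closer together than the levels of most genes differ.

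No difference of the most abundant carriers with exercise or time of day passed the test. Slc25a4 in sedentary hearts ranged from 3708 to 8025 CPM at ZT0 (median 5535) and from 2508 to 5741 CPM at ZT12 (median 4966). In exercised hearts it ranged from 4059 to 7428 CPM at ZT0 (median 5355) and from 3215 to 14477 CPM at ZT12 (median 4573). The groups overlapped in every comparison, and the highest value, in ZT12-EX replicate 4, lay in the library with the smallest mitochondrial share (2.70%). Its log2 fold changes were -0.05 ± 0.25 (SE) for exercise at ZT0, 0.38 ± 0.25 for exercise at ZT12 and -0.38 ± 0.25 for ZT12 against ZT0 in sedentary mice, with adjusted p values of 0.945, 0.41 and 0.27 in edgeR's quasi-likelihood test. Slc25a3 in sedentary hearts ranged from 946 to 1643 CPM at ZT0 (median 1365) and from 1123 to 1952 CPM at ZT12 (median 1297), and in exercised hearts from 1206 to 1618 CPM (median 1305) and from 1017 to 2439 CPM (median 1535). These ranges overlapped throughout, and the log2 fold changes of Slc25a3 lay between 0.03 ± 0.20 (exercise at ZT0) and 0.26 ± 0.20 (time of day in exercised mice).

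The group medians of Slc25a5 and of Slc25a20 lay close together, and single libraries stood out. Slc25a5 in sedentary hearts ran from 163 to 229 CPM at ZT0 (median 198) and from 141 to 323 CPM at ZT12 (median 172), and in exercised hearts from 159 to 245 CPM (median 198) and from 127 to 195 CPM (median 190). Slc25a20 in sedentary hearts ran from 110 to 162 CPM at ZT0 (median 150) and from 121 to 275 CPM at ZT12 (median 144), and in exercised hearts from 124 to 164 CPM (median 134) and from 112 to 168 CPM (median 129). The top value of both genes in ZT12-SED came from replicate 1, the shallowest library. No difference of either gene between groups passed the threshold: the log2 fold changes of Slc25a5 lay between -0.19 ± 0.15 and -0.00 ± 0.15, and those of Slc25a20 between -0.29 ± 0.16 and 0.16 ± 0.16.

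Exercise at the start of the rest phase raised 1 carrier, Slc25a33, which brings pyrimidine nucleotides into the matrix, where they are used for mitochondrial RNA and DNA synthesis. Slc25a33 (ENSMUSG00000028982) ranged from 9.43 to 15.0 CPM in ZT0-SED (median 12.6) and from 15.9 to 23.4 CPM in ZT0-EX (median 21.1). All 6 exercised libraries lay above all 6 sedentary ones. The log2 fold change was 0.75 ± 0.18 (SE, n = 6 per group; adjusted p = 0.0463, edgeR's quasi-likelihood test with Benjamini-Hochberg adjustment over 15294 genes). Slc25a33 was the only one of 39 tested members past the threshold, against 1.08% of all genes tested. The groups did not overlap in 2 members, Slc25a33 and Slc25a12, both higher with exercise, against 1.6% of all genes.

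The call for Slc25a33 at ZT0 lay close to the threshold although its size changed little. Within flow cell 1, where skeletal muscle markers were low in every library, the values were 10.0 to 14.3 CPM in ZT0-SED and 19.7 to 23.4 CPM in ZT0-EX, a log2 fold change of 0.84 ± 0.22 (adjusted p = 0.238; 0.259% of all genes called there). Within flow cell 2, where these markers stood apart in all 3 ZT0-EX libraries, the values were 9.43 to 15.0 and 15.9 to 22.0 CPM, and the log2 fold change was 0.60 ± 0.30 (adjusted p = 0.653; 0.0857% called). The groups did not overlap on either flow cell, which held for 21.0% and 19.5% of all genes. Without the 6 libraries with skeletal muscle transcripts it was 0.89 ± 0.22 with an adjusted p of 0.158 (0.327% of genes called), and without the 3 libraries least like the rest it was 0.74 ± 0.13 with an adjusted p of 0.00234. Leaving out single libraries kept the log2 fold change between 0.66 and 0.82, and the adjusted p ranged from 0.00513 to 0.130. The call was lost in 19 of those 24 fits and kept without ZT12-SED replicate 1 or 3, ZT12-EX replicate 4 or 6, or ZT0-EX replicate 4.

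Slc25a25, which loads adenine nucleotides into the matrix in exchange for phosphate when cytosolic calcium rises, had the largest estimate at ZT0 but did not pass the threshold. It ranged from 4.09 to 9.38 CPM in ZT0-SED (median 6.51) and from 6.92 to 16.7 CPM in ZT0-EX (median 11.5). The exercised libraries lay above the sedentary ones within each flow cell, where 21.0% (flow cell 1) and 19.5% (flow cell 2) of all genes did not overlap. The groups overlapped when the flow cells were joined. The log2 fold change was 0.83 ± 0.24 (adjusted p = 0.121), and the flow cells taken singly gave 0.80 ± 0.27 (flow cell 1) and 0.83 ± 0.31 (flow cell 2). DESeq2 gave 0.82 with an adjusted p of 0.0443, and a fit to the compared groups alone gave 0.82 with an adjusted p of 0.0283. Skeletal muscle markers stood apart in all 3 ZT0-EX libraries on flow cell 2. In each other group there, Slc25a25 was highest in replicate 6, where they also stood apart. It was at 9.38 (ZT0-SED), 13.2 (ZT12-SED) and 17.8 CPM (ZT12-EX), against at most 6.89, 6.97 and 12.5 CPM in replicates 4 and 5. Over 14 alternatives, leaving out the 6 libraries with these transcripts among them, the ZT0 estimate ran from 0.80 to 1.01. The part of these markers was not tested. Exons of Slc25a25 overlap those of Naif1 on the opposite strand in the annotation. Naif1 averaged 2.82 CPM against 8.48 CPM for Slc25a25, and the sources used here do not say whether counting used strand.

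The next members at ZT0 were the aspartate/glutamate carrier Slc25a12 (aralar), part of the malate-aspartate shuttle, and mitoferrin 1 (Slc25a37), an iron importer. Slc25a12 ranged from 101 to 126 CPM in ZT0-SED (median 115) and from 127 to 146 CPM in ZT0-EX (median 137). Its groups did not overlap, but the log2 fold change of 0.27 ± 0.13 did not pass the threshold (adjusted p = 0.478). Slc25a37 had a log2 fold change of 0.21 ± 0.15 (adjusted p = 0.587). The median over the 39 tested members was 0.04 against -0.01 over all genes tested, with 24 estimates above and 15 below 0.

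**Figure D2:**
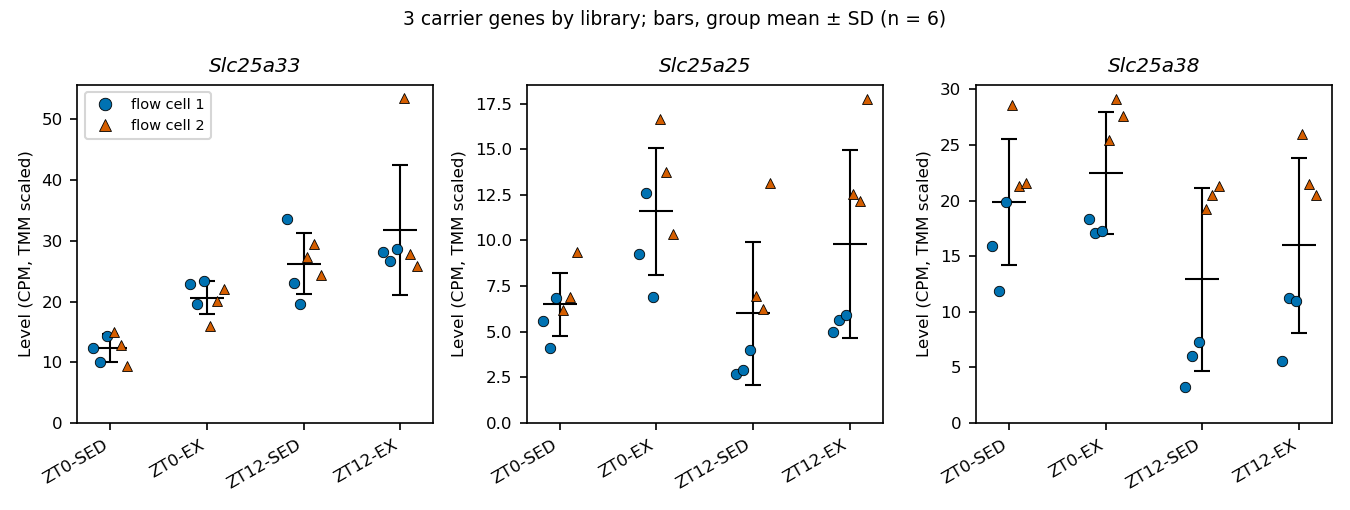
Levels (CPM) of Slc25a33, Slc25a25 and Slc25a38 in each of the 24 libraries by group, with circles for flow cell 1, triangles for flow cell 2 and bars for the mean ± SD of 6 libraries. Slc25a33 is lowest in ZT0-SED (9.43 to 15.0 CPM), and the flow cell 1 libraries of Slc25a38 are low at ZT12 (3.26 to 11.2 CPM).

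Exercise at the start of the active phase changed no carrier past the threshold, against 0.294% of all genes. DESeq2 and limma-voom also called 0, against 1.45% and 0.229% of all genes. Slc25a25 had the smallest p among members, ranging from 2.69 to 13.2 CPM in ZT12-SED (median 5.13) and from 4.97 to 17.8 CPM in ZT12-EX (median 9.02). Its groups overlapped, with a log2 fold change of 0.69 ± 0.24 (adjusted p = 0.22). Slc25a33 ranged from 19.6 to 33.6 CPM in ZT12-SED (median 25.9) and from 25.9 to 53.5 CPM in ZT12-EX (median 27.9), where replicate 4 at 53.5 CPM lay far above the next library. Its log2 fold change was 0.27 ± 0.18 (adjusted p = 0.424).

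Slc25a46, an outer membrane protein of mitochondrial fusion and fission, and Slc25a13 (citrin), the second aspartate/glutamate carrier, had the lowest estimates with a small p at ZT12. Slc25a46 had a log2 fold change of -0.66 ± 0.24 (adjusted p = 0.227) and Slc25a13 of -0.55 ± 0.22 (adjusted p = 0.252). Both rested on a few libraries: without ZT12-SED replicates 1 and 2 and ZT12-EX replicate 4 the estimates were -0.06 and -0.05. Over the 39 tested members the median at ZT12 was 0.08 against 0.06 over all genes.

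No member differed between the exercise effects at ZT12 and ZT0, and neither did any of the 15294 genes (0% called). DESeq2 and limma-voom also called 0 members, against 0.0327% and 0% of all genes. The differences with the smallest p were -0.66 ± 0.30 for Slc25a13, -0.72 ± 0.34 for Slc25a46 and -0.56 ± 0.29 for Slc25a36, the other pyrimidine nucleotide carrier (adjusted p = 0.571 for each). For Slc25a33 the difference was -0.47 ± 0.26 (adjusted p = 0.571), so its rise at ZT0 and its estimate at ZT12 were not shown to differ.

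Time of day in sedentary mice moved Slc25a33 upward and Slc25a38 downward at ZT12. Slc25a33 ranged from 9.43 to 15.0 CPM in ZT0-SED and from 19.6 to 33.6 CPM in ZT12-SED, with no overlap. The log2 fold change was 1.08 ± 0.19 (adjusted p = 0.00105, edgeR). It was 1.00 ± 0.22 on flow cell 1 (adjusted p = 0.00405) and 1.11 ± 0.30 on flow cell 2 (adjusted p = 0.34), and the groups did not overlap on either, against 53.6% and 13.0% of all genes, or over all libraries (1.7%). The call was kept in every fit that left out a single library, with log2 fold changes from 0.99 to 1.15 and adjusted p from 4.31e-05 to 0.00442. In all, 2 of 39 members passed, against 5.2% of all genes tested, with 1 higher (2.46% of all genes) and 1 lower (2.74%). This share is near the background, and the count was not stable: it ran from 1 to 13 when single libraries were left out, with 13 (21.2% of all genes called) without ZT12-EX replicate 4 and 12 (18.2%) without ZT0-SED replicate 6.

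Slc25a38 was lower at ZT12 in sedentary mice, by more on flow cell 1 than on flow cell 2, a difference between flow cells that was not tested. It ranged from 11.9 to 28.6 CPM in ZT0-SED (median 20.6) and from 3.26 to 21.3 CPM in ZT12-SED (median 13.3). On flow cell 1 the values were 11.9 to 19.9 against 3.26 to 7.30 CPM, and on flow cell 2 they were 21.3 to 28.6 against 19.2 to 21.3 CPM. The log2 fold change was -0.80 ± 0.23 (adjusted p = 0.0456), and the mean difference in log2 CPM was -1.55 within flow cell 1 but -0.22 within flow cell 2. Without the 3 libraries least like the rest it was -0.50 ± 0.20 (adjusted p = 0.18), and with offsets for GC content -0.39 ± 0.12 (adjusted p = 0.0786). The call was lost in 9 of 14 alternatives, the replicate block among them (adjusted p = 0.0584). Single libraries left out gave -0.89 to -0.65, and the call was lost in 18 of 24 such fits, with adjusted p up to 0.135. It was kept without ZT12-SED replicate 5 or 6, ZT12-EX replicate 1 or 4, or ZT0-SED replicate 5 or 6.

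Slc25a38, Slc25a39 and Slc25a37 serve haem and iron metabolism, which is most active in red cell precursors, so the erythroid markers are given beside them. Of 8 markers listed, 7 were found, and their summed level in sedentary hearts ranged from 339 to 2503 CPM at ZT0 (median 1455) and from 258 to 1433 CPM at ZT12 (median 654), and in exercised hearts from 371 to 2414 CPM (median 833) and from 242 to 4752 CPM (median 705). None of the 7 was at 0 throughout a group, and 0 of the 6 tested differed with time of day in sedentary mice, with 5 of 6 estimates below 0 and a median of -0.59. Their part in the result was not tested.

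Close to the threshold in sedentary mice lay both glutathione carriers and citrin, with different signs. Slc25a39 had a log2 fold change of -1.09 ± 0.33 (adjusted p = 0.056), Slc25a40 of 0.72 ± 0.22 (adjusted p = 0.0568) and Slc25a13 of 0.71 ± 0.22 (adjusted p = 0.0561). On flow cell 1 alone they were -2.12 ± 0.36, 1.34 ± 0.25 and 1.08 ± 0.30, and on flow cell 2 alone -0.21 ± 0.26, 0.06 ± 0.23 and 0.24 ± 0.22. Slc25a39 was between 8.82 and 24.3 CPM in ZT12-SED replicates 1 to 3 and between 100.4 and 109.8 CPM in replicates 4 to 6.

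In exercised mice no carrier passed the threshold between ZT12 and ZT0, against 1.65% of all genes. With limma-voom 0 members were called (1.76% of all genes), and with DESeq2 1 (Slc25a33), where 3.5% of all genes were called. Slc25a33 ranged from 15.9 to 23.4 CPM in ZT0-EX and from 25.9 to 53.5 CPM in ZT12-EX without overlap, which held for 1.1% of all genes. Its log2 fold change was 0.61 ± 0.18 (adjusted p = 0.101), and without ZT12-EX replicate 4 it was 0.41 (adjusted p = 0.15). Slc25a14, a relative of the uncoupling proteins, had 0.79 ± 0.25 (adjusted p = 0.119) and passed the threshold without ZT12-EX replicate 6 (adjusted p = 0.0382). Slc25a22, a glutamate carrier, had -0.89 ± 0.30 (adjusted p = 0.149).

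**Figure D3:**
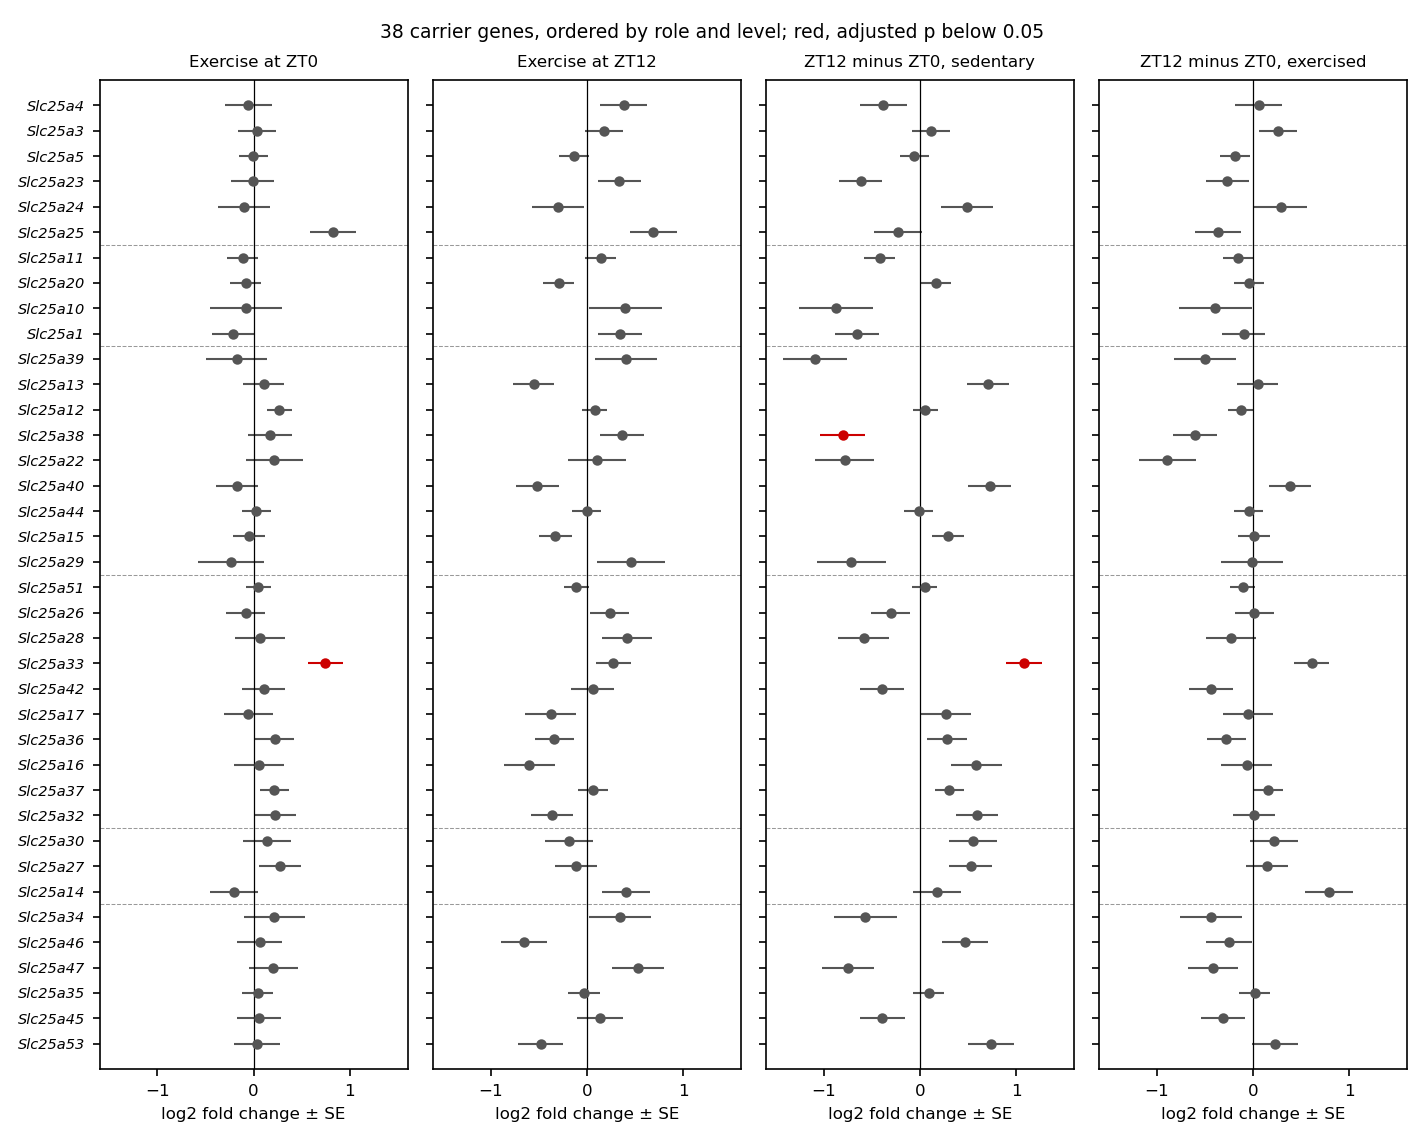
Log2 fold change ± SE of 38 of the 39 tested carrier genes in the 4 comparisons between groups, ordered by role (dashed lines) and level, with red for adjusted p below 0.05. Red points are Slc25a33 for exercise at ZT0 (0.75) and, for time of day in sedentary mice, Slc25a33 (1.08) and Slc25a38 (-0.80).

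By role, the calls were spread thinly. Among the 6 tested adenine nucleotide and phosphate carriers (Slc25a4, Slc25a5, Slc25a3 and the ATP-Mg/phosphate carriers Slc25a23, Slc25a24 and Slc25a25), 0 passed in any comparison between groups, and their medians ran from -0.14 for time of day in sedentary mice to 0.26 for exercise at ZT12. The 4 tested carboxylate and acylcarnitine carriers, the citrate carrier Slc25a1, the dicarboxylate carrier Slc25a10, Slc25a11 and Slc25a20, had 0 calls and all had estimates below 0 for exercise at ZT0 (-0.21 to -0.08). Among the 9 tested amino acid and glutathione carriers Slc25a38 alone passed, for time of day in sedentary mice. Among the 11 cofactor, nucleotide and iron carriers Slc25a33 alone passed. The other 10 of that role, which include the carriers of coenzyme A (Slc25a42), NAD (Slc25a51), S-adenosylmethionine (Slc25a26) and folate and FAD (Slc25a32), had estimates from -0.08 to 0.23 for exercise at ZT0. The 6 tested orphan and other carriers and the 3 relatives of the uncoupling proteins (Slc25a14, Slc25a27 and Slc25a30) had 0 calls in the comparisons between groups.

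Flow cell separated the carriers far more than exercise or time of day. Of 39 tested members, 30 differed between flow cells, 15 higher and 15 lower on flow cell 2, against 68.1% of all genes (34.1% higher and 34.0% lower). Among the members higher on flow cell 2 were the mitoferrin Slc25a28 (1.32 ± 0.19), Slc25a38 (1.07 ± 0.16), Slc25a39 (1.55 ± 0.24), the basic amino acid carrier Slc25a29 (1.64 ± 0.26), Slc25a22 (1.32 ± 0.22), Slc25a47 (1.11 ± 0.19), Slc25a10 (1.61 ± 0.28), Slc25a34 (1.35 ± 0.24), Slc25a25 (0.92 ± 0.17) and Slc25a42 (0.85 ± 0.16). Among those lower were Slc25a36 (-0.98 ± 0.15), Slc25a40 (-1.04 ± 0.16), Slc25a16 (-1.07 ± 0.19) and Slc25a32 (-0.81 ± 0.16). With offsets for GC content in each library Slc25a36 was at -0.12, Slc25a40 at -0.07 and Slc25a32 at 0.032, none of them past the threshold, while Slc25a16 passed at -0.40. Of the higher members, Slc25a28, Slc25a38 and Slc25a25 kept the call in all 8 alternatives, with lowest estimates of 0.94, 0.33 and 0.80. Slc25a39, Slc25a29, Slc25a22, Slc25a47, Slc25a10, Slc25a34 and Slc25a42 each lost it in 1 of the 8. Their lowest estimates were 0.20, 0.23, 0.35, 0.21, 0.19, 0.25 and 0.08. Slc25a33 was among the 9 members that did not pass (0.07 ± 0.13, adjusted p = 0.624), as were Slc25a51 (-0.20 ± 0.09), the branched-chain amino acid carrier Slc25a44 (0.23 ± 0.11) and Slc25a11 (0.20 ± 0.11).

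These flow cell differences followed the GC content of the transcripts. Across the 39 tested members, whose GC content ran from 39.4% to 60.6%, the flow cell difference had a Pearson correlation of 0.89 and a Spearman correlation of 0.91 with GC content. The members share their libraries, and the same relation held over all genes (Spearman 0.81 over 15288 genes). Of the 20 members at or above the median of 49.8% GC, 17 were higher on flow cell 2, and of the 19 below it 17 were lower. In a fit with offsets for GC content in each library the correlations were 0.11 and 0.17, and 15 members differed between flow cells, against 36.4% of all genes. The offsets were fitted to the trend with GC content in these same counts, so the lower correlations follow from the fit. They also take out any difference between groups that follows GC content.

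The same property ran through the time-of-day values on flow cell 1. In sedentary mice the ZT12 difference on flow cell 1 correlated with GC content at -0.89 (Pearson) and -0.87 (Spearman), and on flow cell 2 at -0.15 and -0.29. On flow cell 1 alone 25 members passed, 10 higher and 15 lower, against 43.5% of 15071 genes, and on flow cell 2 alone 0 passed, against 0.231% of 15165 genes. Over all libraries exercise at ZT12 correlated with GC content at 0.76 and 0.75 and exercise at ZT0 at -0.08 and -0.15, and on flow cell 1 alone the values were 0.84 and 0.86, and -0.27 and -0.37. On flow cell 2 alone they were 0.46 and 0.51 for exercise at ZT12, and 0.12 and 0.14 for exercise at ZT0. The difference between the exercise effects gave 0.34 and 0.35 on flow cell 2, and time of day in exercised mice 0.25 and 0.20. Time of day in sedentary mice over all libraries gave -0.82 and -0.84, time of day in exercised mice -0.51 and -0.56, and the difference between the exercise effects 0.74 and 0.75. Over 15288 genes the Spearman correlations were 0.59 for exercise at ZT12, 0.03 for exercise at ZT0, -0.70 and -0.38 for time of day in sedentary and exercised mice, and 0.46 for the difference between the exercise effects.

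Slc25a33 lay outside that relation. With a GC content of 53.8% it was higher at ZT12 on both flow cells, while the other members called on flow cell 1 with a GC content above the members' median were all lower there. With GC offsets its difference between ZT12 and ZT0 in sedentary mice was 1.41 ± 0.18 (adjusted p = 2.33e-05; 3.45% of all genes called), and its difference with exercise at ZT0 was 0.74 ± 0.18 (adjusted p = 0.0258; 1.57% called). With the same offsets Slc25a33 also passed for time of day in exercised mice (0.66 ± 0.17, adjusted p = 0.0413; 2.41% called). Slc25a38, with a GC content of 55.9%, lay with the other GC-rich members: its sedentary time-of-day difference with offsets was -0.39 ± 0.12 (adjusted p = 0.0786).

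**Figure D4:**
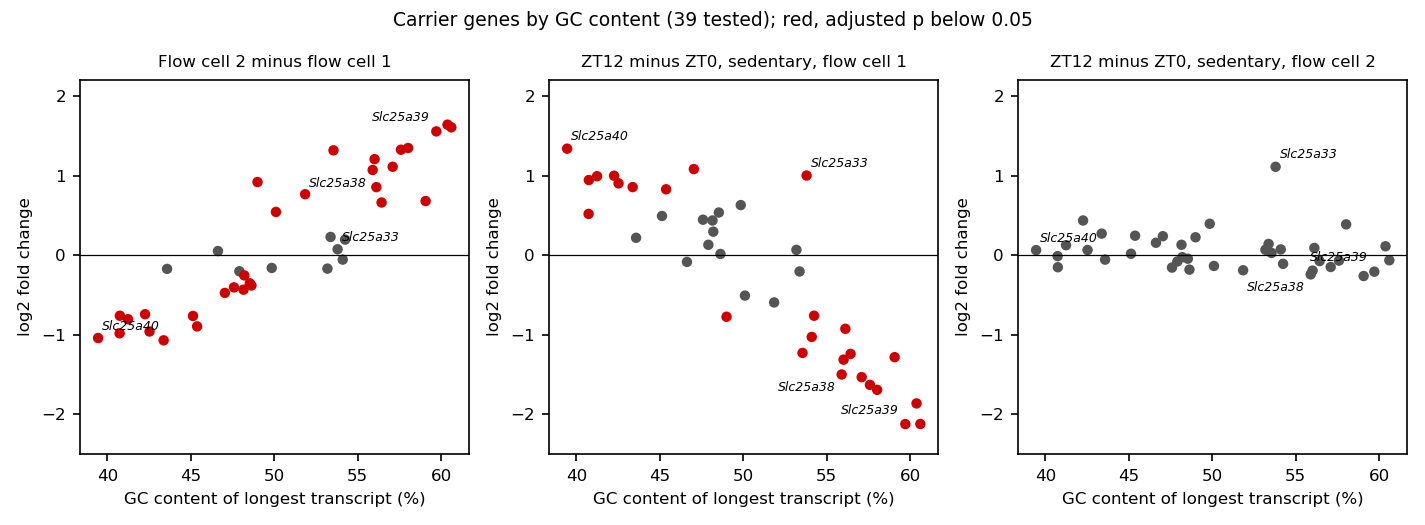
Log2 fold change of the 39 tested carrier genes against the GC content of their longest transcript, for flow cell 2 minus flow cell 1 (left) and for ZT12 minus ZT0 in sedentary mice on flow cell 1 (middle) and flow cell 2 (right), with red for adjusted p below 0.05. The points rise with GC content on the left (Pearson 0.89), fall on flow cell 1 (-0.89) and are level on flow cell 2 (-0.15), and Slc25a33 stays near 1 in the middle and right panels.

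Of the partner genes of the carriers, 1 passed a test between groups. In 7 lists of 34 genes, covering relatives of the family outside the symbol rule, the carrier import machinery, the pyruvate carrier, the carnitine shuttle, the malate-aspartate shuttle enzymes, the outer membrane porins and the calcium uniporter, only Micu3 passed. Micu3, a regulator of the calcium uniporter, was higher at ZT12 in sedentary mice by 0.82 ± 0.24 (log2, adjusted p = 0.0486), in the comparison where 5.2% of all genes passed. The 9 import genes, which deliver carriers to the inner membrane, had a median of -0.36 for exercise at ZT0 with 7 of 9 estimates below 0 and 0 calls, against a median of -0.01 over all genes. Mtch1, an outer membrane relative of the carriers, had an estimate below 0 for time of day in sedentary mice (adjusted p = 0.0505), and Timm10, an import chaperone, had a log2 fold change of -1.03 ± 0.33 (adjusted p = 0.0607).

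Markers of other tissues differed beside these comparisons. The summed level of 12 fast skeletal muscle markers in sedentary hearts ranged from 11.2 to 723 CPM at ZT0 and from 3.26 to 1069 CPM at ZT12, in exercised hearts from 13.2 to 3147 CPM and from 8.12 to 1096 CPM, and none of the 12 was at 0 throughout a group. For exercise at ZT0 all 12 had estimates above 0 (median 1.88) and 0 passed. Slc25a4 is also the ADP/ATP carrier isoform of skeletal muscle, and its ZT0 estimate was -0.05 ± 0.25. For Slc25a33 the ZT0 estimate was 0.84 ± 0.22 on flow cell 1, where these markers were low in every library. For time of day in sedentary hearts, 1 of 6 macrophage markers passed (Cd163, 0.96 ± 0.22) while 4 of 6 estimates were below 0 (median -0.18). Of 6 fibroblast markers 1 passed (Col1a1, -0.98 ± 0.23), with 3 estimates on each side of 0 (median -0.03), and of 6 endothelial markers 1 passed (Egfl7, -1.09 ± 0.31), with 5 estimates below 0 (median -0.14). Cidea, the 1 tested of 4 brown adipocyte markers, was lower (-0.96 ± 0.24). The summed level of the 8 cardiomyocyte markers in sedentary hearts ranged from 49199 to 94364 CPM at ZT0 (median 60691). At ZT12 it ranged from 33270 to 67718 CPM (median 48206). In exercised hearts the sums were 49571 to 76978 CPM at ZT0 (median 55600) and 30362 to 196292 CPM at ZT12 (median 51426). In exercised hearts Col1a1 was lower at ZT12 (-1.27 ± 0.23), whereas 4 of 6 fibroblast estimates were above 0 (median 0.07). With exercise at ZT0 1 fibroblast marker passed (Tcf21, -0.94 ± 0.21), with 4 of 6 estimates below 0 (median -0.23). Between flow cells, 12 of 12 fast skeletal muscle markers (median 5.51), 6 of 7 tested adipocyte markers (median 1.79), 5 of 6 tested erythroid markers (median 1.35) and 4 of 8 cardiomyocyte markers (median 0.76, with 1 lower) were higher on flow cell 2. Their part in the results for the carriers was not tested.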

How the data were processed

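Poly-A RNA from mouse heart was sequenced in 24 libraries. The authors deposited raw counts for each Ensembl identifier. The submitters' processing notes name Trimmomatic 0.39, HISAT2 2.2.1, featureCounts 2.0.1 and the build GRCm39; the sources used here give neither settings nor annotation release nor use of strand. Overlapping genes are therefore uncertain: in the annotation 14 of 47 members share exon sequence with another gene. Symbols, biotypes, transcript lengths and GC content came from a GRCm38 annotation matched by Ensembl identifier (257 identifiers had no symbol and held 0.0013% of counts). A pseudogene, Slc25a5-ps (at most 6 counts), was left out.

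Tests used edgeR 4.0.16 (R 4.3.3): filterByExpr on the groups (15294 genes), TMM, and robust quasi-likelihood fits to all 24 libraries with group and flow cell as terms (19 residual degrees of freedom), with Benjamini-Hochberg adjustment over all genes and a threshold of 0.05. Intervals and errors are SE unless stated, and n is 6 libraries per group. Sample titles number the libraries as biol rep. The script was tested on simulated data. Members, lists and tests were chosen with earlier results of these data known. Named in each comparison were all members past the threshold (at most the 15 with the smallest p) and the 3 next by p, with values by library for called members and Slc25a4, Slc25a5, Slc25a3 and Slc25a20. One member is not reported here. Library values of Slc25a25, Slc25a12 and Slc25a39 were added after they were seen. The 6 libraries with skeletal muscle transcripts and the 3 least like the rest were known from earlier results. Within groups, 60 pairs of libraries were compared for repeats, and chi-square over its degrees of freedom was at least 14.6. Alternatives were DESeq2 size factors, DESeq2 1.42.0, limma-voom (limma 3.58.1), other filters (none, or at least 1 CPM in 6 libraries), no flow cell term, the compared groups alone, a replicate block, GC offsets, each flow cell alone and libraries left out.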

Additional observations from a re-analysis of the deposited data

Results flagged for a closer look

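Single libraries stood apart from the other 5 of their group in 7 of 64 checks, made over 16 members in 4 groups with Dixon's test (critical value 0.625). The critical value flags about 1 in 20 groups of independent draws from a normal distribution. Each group here joins both flow cells, and the 64 checks share the same 24 libraries. The 7 flags therefore cannot be set against that rate. ZT12-SED replicate 1, the library with the lowest total, was highest for Slc25a13 (294 CPM), Slc25a20 (275 CPM) and Slc25a5 (323 CPM). ZT0-EX replicate 1 was highest for Slc25a20 (164 CPM) and Slc25a3 (1618 CPM). ZT12-EX replicate 4, where the mitochondrial share of counts was 2.70%, was highest for Slc25a4 (14477 CPM) and Slc25a33 (53.5 CPM). What sets these libraries apart was not tested.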

How the results depend on the processing

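The 0 carriers called for exercise at ZT12 and for the difference between the exercise effects stayed 0 in all 14 and 13 alternatives and with each of the 24 libraries left out. In the 14 alternatives for exercise at ZT12, 0.0264% (flow cell 2 alone) to 1.45% (DESeq2) of all genes were called. For exercise at ZT0 the count of 1 (1.08% of all genes called) became 0 with DESeq2 size factors, no filter, at least 1 CPM in 6 libraries, no flow cell term, either flow cell alone and without the 6 libraries with skeletal muscle transcripts. The count became 2 with DESeq2 (1.75% of all genes) and with the compared groups alone (2.83%). Leaving out single libraries gave 0 to 1, with 0.591% to 1.49% of all genes called. For time of day in sedentary mice the count of 2 (5.2% of all genes called) became 1 with no filter (1.51%), no flow cell term (0.843%) and the compared groups alone (1.69%). With GC offsets (3.45%) and without the 3 libraries least like the rest (2.79%) it was also 1. It became 4 with limma-voom (4.85% of all genes), 11 without the 6 libraries with skeletal muscle transcripts (20.1%) and 13 with DESeq2 (18.6%). On flow cell 1 alone it was 25 (43.5%) and on flow cell 2 alone 0 (0.231%). Single libraries left out gave 1 to 13, with 13 (21.2% of all genes) without ZT12-EX replicate 4, 12 (18.2%) without ZT0-SED replicate 6, 6 without ZT12-SED replicate 5 (5.83%) or ZT0-SED replicate 5 (6.55%), and 5 (6.83%) without ZT12-SED replicate 6. For time of day in exercised mice the count of 0 became 1 with DESeq2 (3.5% of all genes) and 2 with GC offsets (2.41%). It became 3 without the 3 libraries least like the rest (6.49%), and single libraries left out gave 0 to 1 (0.877% to 2.94%). The flow cell count of 30 (68.1% of all genes) became 15 with GC offsets (36.4%) and was 28 to 31 with single libraries left out (65.0% to 69.9%). With GC offsets the flow cell estimate changed sign for Slc25a32 (0.032), Slc25a51 (0.10), Slc25a44 (-0.12) and Slc25a11 (-0.31).

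Whether replicate numbers pair the samples was left undecided. Over 36 pairs of same-numbered libraries the correlation of deviations ran from -0.45 to 0.78 (median 0.0065), with 15 above 0.1. In 20 of 72 choices among the 6 libraries of another group, a library correlated best with its own number. Same-numbered pairs of ZT12-SED and ZT12-EX ran from 0.06 to 0.48, and those of ZT0-SED and ZT0-EX from -0.38 to 0.14. With the replicate block, 1 carrier was called for time of day in sedentary mice (Slc25a33; 3.98% of all genes), and 1 with the block and GC offsets (3.05%). For time of day in exercised mice 2 were called with the block and GC offsets (2.31%). The counts for exercise did not change with the block (1.05% of all genes called at ZT0 and 0.203% at ZT12). The causes of these shifts were not tested.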
